A study of Mus musculus with 16 samples.

Results

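The genes that copy DNA were followed in the adrenal glands of mouse embryos whose adrenal cortex had lost Dicer, the nuclease that releases mature microRNAs from their hairpins. A list of 41 DNA replication and S-phase genes was used, chosen by name: the helicase that opens the double strand and the factors that load it, the sliding clamp and its loader, the polymerases and primase, the enzymes that finish the new strand and pack it, the enzymes that supply nucleotides, and regulators that start S phase. Each gene was read from its brightest probe set, by the mean of all 16 arrays. Of the 41 genes, 40 had a named probe set and all 40 passed the filter on low signal, among 13644 genes tested of 18193 measured. Chaf1a was not analysed here.

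The 16 arrays fell into 4 groups of 4: knockout and control glands at embryonic days E15.5 and E16.5. Knockout embryos were Sf1-Cre/Dicer lox/lox, in which Cre is made where Sf1 is active, so the cortex loses Dicer while medullary, vascular, blood and capsular cells of the same gland need not. Parents were Sf1-Cre/Dicer lox/lox, Sf1-Cre/Dicer +/lox and Dicer lox/lox mice. Controls were littermates without Cre on a C57BL/6 background, labelled WT, and which lox alleles a control carried is not given for single samples. Glands of 1 genotype were pooled, with 4 litters at each stage, so an array stands for a pool and not for 1 embryo. In whole glands, a change in the number of cells of a type and a change in RNA per cell cannot be told apart.

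A cell licenses its origins before S phase, when ORC, Cdc6 and Cdt1 load the Mcm2 to Mcm7 helicase onto DNA. In S phase, Cdc45 and GINS turn the helicase on, primase and polymerase alpha lay down primers, and polymerases delta and epsilon extend them while held to DNA by the PCNA clamp. Most of these genes are transcribed together at the border of G1 and S phase under E2F factors, which is why their messenger RNAs are widely read as a sign of cycling cells. The fetal adrenal cortex grows by division of cells in its outer part.

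E2F factors recognise a short element, often close to the start site of such genes. To show what such a start region looks like, the 250 bases before the RefSeq start site (GRCm38.p6) are printed for Mcm10 and Mcm5, the genes with the smallest p among those higher in knockout glands at E16.5, and for Cdc6, the gene that fell between the days in control glands. Capitals mark the letters TTTCCCGC, TTTCGCGC, TTTGCCGC or TTTGGCGC on either strand, with overlapping matches counted. The windows are chr2:5012792-5013041 on the minus strand for Mcm10, chr8:75109259-75109508 on the plus strand for Mcm5 and chr11:98907901-98908150 on the plus strand for Cdc6.
Mcm10: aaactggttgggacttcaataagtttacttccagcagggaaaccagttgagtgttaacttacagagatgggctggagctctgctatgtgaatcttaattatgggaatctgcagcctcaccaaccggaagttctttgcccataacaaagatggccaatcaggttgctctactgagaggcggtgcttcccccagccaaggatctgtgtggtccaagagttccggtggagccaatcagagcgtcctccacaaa
Mcm5: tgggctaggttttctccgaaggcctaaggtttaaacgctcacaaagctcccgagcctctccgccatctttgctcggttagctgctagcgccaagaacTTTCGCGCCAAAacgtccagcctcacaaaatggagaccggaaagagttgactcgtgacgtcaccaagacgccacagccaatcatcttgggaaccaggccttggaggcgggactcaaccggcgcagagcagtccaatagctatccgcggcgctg
Cdc6: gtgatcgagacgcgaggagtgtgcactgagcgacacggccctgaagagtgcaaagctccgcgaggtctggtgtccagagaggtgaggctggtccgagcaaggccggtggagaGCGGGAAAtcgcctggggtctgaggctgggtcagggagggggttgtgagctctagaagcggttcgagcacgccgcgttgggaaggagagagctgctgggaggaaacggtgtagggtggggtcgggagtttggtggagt
The Mcm5 window held a pair of overlapping matches, the Cdc6 window had 1 and the Mcm10 window had none. Of the 33 listed genes with a RefSeq window, 6 held a match, which was 18.2% against 2.16% of 27025 genes with a window of the same length. They were Mcm5, Mcm6, Mcm7, Cdc6, Rfc3 and Pola1, and of these Mcm5 was called in the knockout comparison at E16.5 and Cdc6 in the control day comparison. The CCAAT letters were found in 54.5% of the listed genes and 37.5% of all genes. The cell cycle element letters TTTGAA and TTCGAA were found in 18.2% and 19.6%. These matches describe letters in a window and not sites of binding.

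Signals are log2 values after RMA. A gene was called at an adjusted p under 0.05 in limma's moderated test, with Benjamini-Hochberg adjustment over all 13644 genes, and each adjusted p below comes from that test. Before any result on single genes, 1 array needs naming. In control E16.5 replicate 2, the 3′ minus 5′ signal of the Gapdh and Actb control probe sets, which is larger where RNA is degraded or its copying stops early, was 3.15 on the log2 scale, against 0.19 to 1.62 on the other 15 arrays. Knockout E16.5 replicate 1 was next, at 1.62. The counts and calls that use control E16.5 are given with and without that control array.

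The targeted gene, Dicer1, differed by -0.35 on the log2 scale in knockout glands at E15.5 (SE 0.107, adjusted p = 0.0638), which did not pass, and by -0.36 at E16.5 (SE 0.107, adjusted p = 0.0414), which did. Without control E16.5 replicate 2, the E16.5 difference of Dicer1 was -0.29 (SE 0.105, adjusted p = 0.0878) and did not pass. Where its probe set lies relative to the deleted exons was not determined here. The cortex genes Star and Cyp11a1 and the chromaffin genes Th and Chga lay above the filter on all 16 arrays, and the endothelial gene Pecam1 and the macrophage gene Csf1r did so too. Of the kidney genes, Nphs1, which encodes nephrin of the podocyte, lay above it on 14 arrays, Six2, which marks kidney progenitors, on 8 and Umod on none. Their signals were low, with medians of 5.36 for Nphs1 and 5.15 for Six2, against 13.60 for Star and 11.98 for Chga. All-gene medians of knockout minus control were 0.069 at E15.5 and 0.080 at E16.5 on the log2 scale, and 64.2% and 64.3% of all genes tested had a positive difference, so the counts for the replication genes are set beside those shares.

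**Figure D1:**
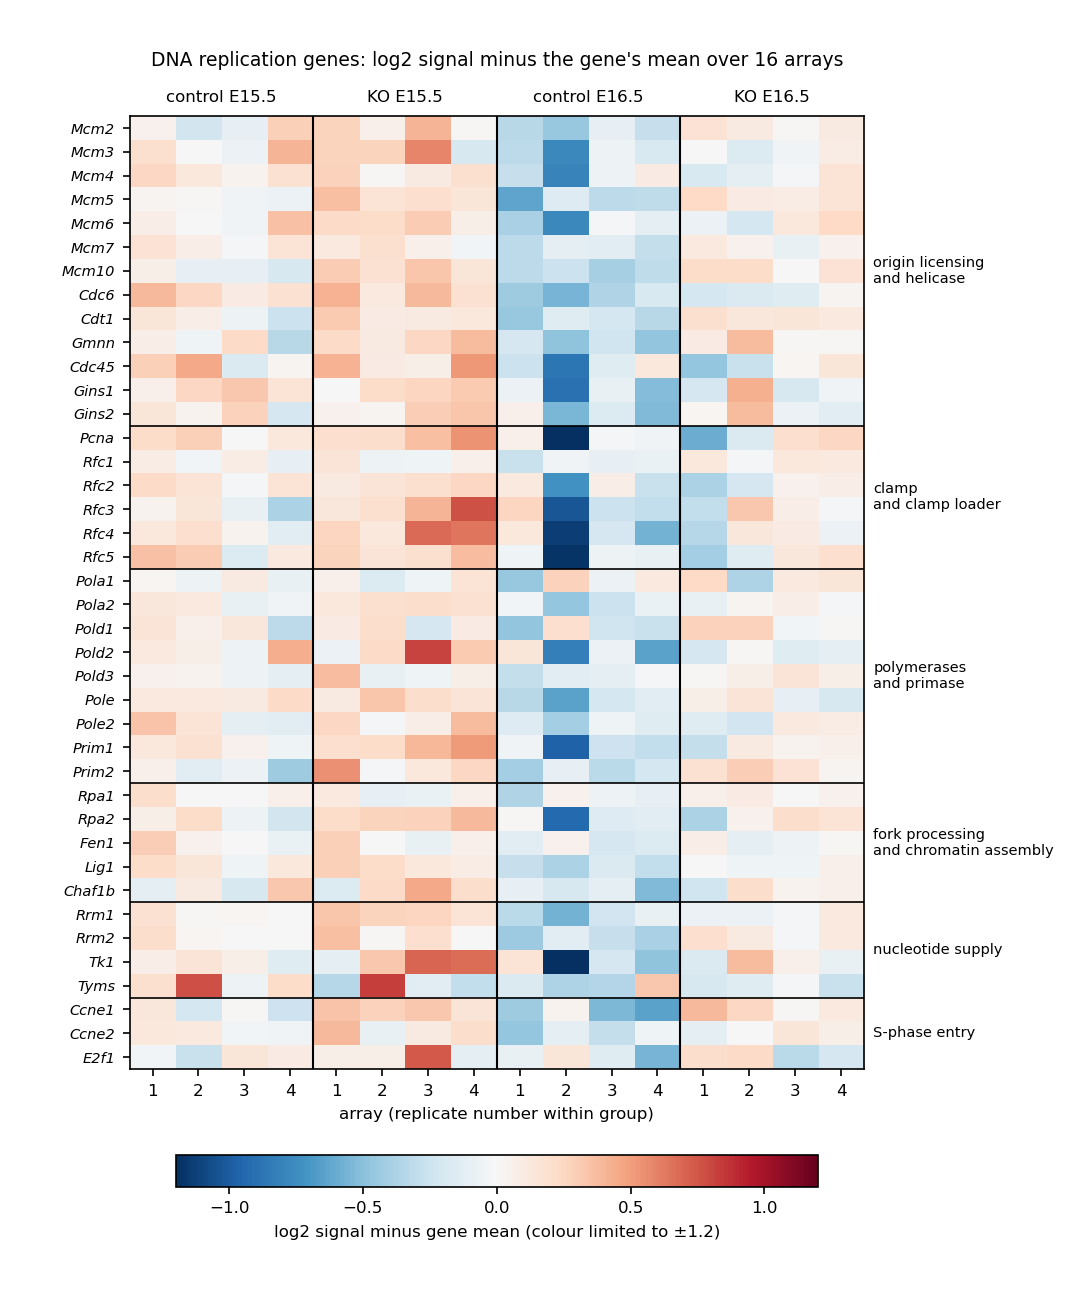
Log2 signal of each of the 40 replication genes (rows, grouped by role) on each of the 16 arrays (columns), minus the gene's mean over the 16 arrays; red is higher and blue lower. Control E16.5 replicate 2 is the array with the deepest blue, with Pcna at 11.05 against its mean of 12.66 over the 16 arrays. That array also has paler red cells, as for Pola1 at 9.24 against its mean of 8.97.

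At E16.5, replication genes were higher in knockout glands. Of the 40 genes, 8 were called, all 8 higher, where 10.5% of all genes were called and 6.99% were called higher. They were Mcm10, Mcm5, Cdt1, Ccne1, Rrm2, Gmnn, Prim2 and Mcm2, and the differences from controls ran from 1.31-fold to 1.5-fold. The difference was positive for 39 of the 40 genes, with a median of 0.29 on the log2 scale against 0.080 over all genes. An unadjusted p under 0.05 was reached by 21 of the 40, all higher, against 16.8% of all genes. All 4 knockout values lay above all 4 control values for 12 genes, or 30%, against 10.4% of all genes.

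Of the 13 origin licensing and helicase genes, 5 were called higher in knockouts at E16.5, against 6.99% of all genes. Without control E16.5 replicate 2 it was 4, against 8.6%. Mcm10, which helps the loaded helicase become active, had the smallest p. Its log2 signals were 7.56, 7.62, 7.48 and 7.57 in controls and 8.09, 8.10, 7.88 and 8.05 in knockouts. The groups did not overlap, and the difference was 0.47 (SE 0.0877, adjusted p = 0.00228), or 1.39-fold. Mcm5, a subunit of the helicase ring, read 10.45, 10.92, 10.76 and 10.77 in controls and 11.31, 11.17, 11.16 and 11.24 in knockouts. Every knockout pool was above every control pool, by 0.49 on average (SE 0.0987, adjusted p = 0.00392). Mcm2, another subunit, read 10.43, 10.32, 10.67 and 10.49 in controls and 10.94, 10.87, 10.78 and 10.88 in knockouts. Its groups did not overlap either, and its difference of 0.39 (SE 0.120, adjusted p = 0.0481) was the closest of the 8 to the threshold.

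Cdt1, the loading factor, and Gmnn, which encodes geminin, the inhibitor that binds Cdt1 and blocks a further round of loading, were both higher in knockouts. Cdt1 signals were 10.69, 11.00, 10.94 and 10.81 in controls and 11.34, 11.28, 11.29 and 11.26 in knockouts. The 4 knockout pools lay between 11.26 and 11.34, above all controls, and the difference was 0.43 (SE 0.102, adjusted p = 0.0120). Gmnn signals were 10.18, 9.89, 10.14 and 9.91 in controls and 10.48, 10.76, 10.39 and 10.39 in knockouts, again without overlap, a difference of 0.48 (SE 0.126, adjusted p = 0.0234). The other 8 genes of this role, the remaining helicase subunits, Cdc6, Cdc45 and the GINS genes, did not pass, with differences from 0.14 for Cdc45 to 0.39 for Gins1.

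**Figure D2:**
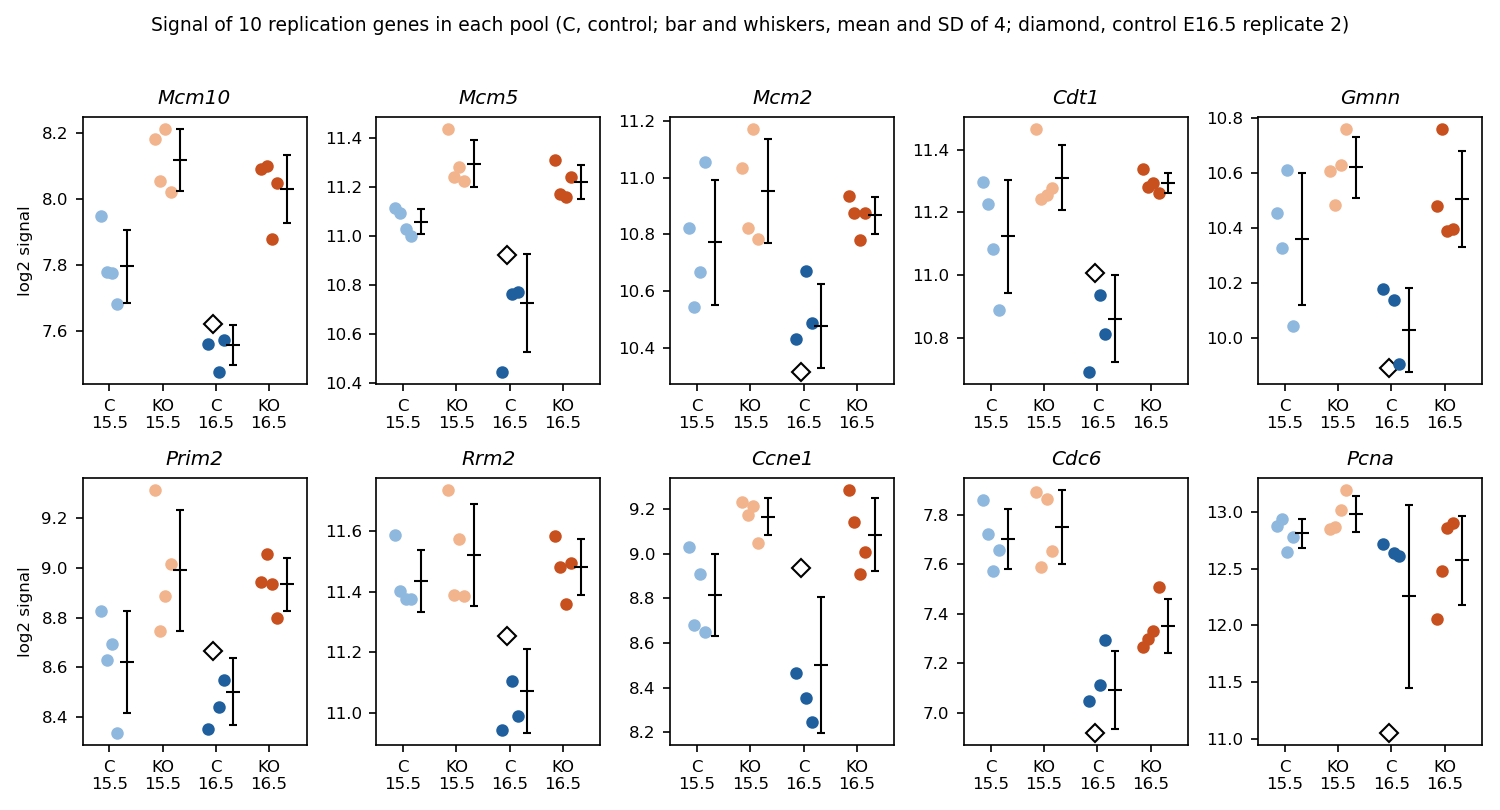
Log2 signal on each array (points) for the 8 genes called higher in knockouts at E16.5, for Cdc6 and for Pcna, with bars at the mean and SD of the 4 arrays of a group and control E16.5 replicate 2 set apart. For Mcm10 the knockout E16.5 points lie between 7.88 and 8.10 and the control E16.5 points between 7.48 and 7.62, while for Pcna that 1 control array lies at 11.05 and the other 3 between 12.61 and 12.72.

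Outside licensing, a gene each of the primase, nucleotide and S-phase entry groups was called higher in knockouts at E16.5. Prim2, the large subunit of primase, read 8.35, 8.67, 8.44 and 8.55 in controls and 8.94, 9.06, 8.94 and 8.80 in knockouts, without overlap, a difference of 0.43 (SE 0.129, adjusted p = 0.0431). Rrm2, the small subunit of ribonucleotide reductase, which makes deoxynucleotides, read 10.94, 11.25, 11.10 and 10.99 in controls and 11.58, 11.48, 11.36 and 11.50 in knockouts. Its groups did not overlap, and the difference was 0.41 (SE 0.103, adjusted p = 0.0182). Ccne1 encodes cyclin E1, the partner of Cdk2 at the start of S phase. It read 8.46, 8.94, 8.36 and 8.25 in controls and 9.28, 9.14, 8.91 and 9.01 in knockouts, and its difference of 0.58 (SE 0.139, adjusted p = 0.0130) was the largest of the 40, although the control value of replicate 2 lay among the knockout values.

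None of the 6 clamp and clamp loader genes was called at E16.5, and their differences ran from 0.083 for Rfc2 to 0.40 for Rfc4. Pcna, the clamp, read 12.72, 11.05, 12.64 and 12.61 in controls and 12.06, 12.48, 12.86 and 12.90 in knockouts. Replicate 2 of the controls was far below all other pools, and the difference of 0.32 (SE 0.288, adjusted p = 0.563) was about as large as its error. Among the other 8 polymerase and primase genes, differences ran from 0.066 for Pola1 to 0.37 for Prim1, and none passed. The 5 fork and chromatin genes measured did not pass either, from 0.093 for Fen1, the flap endonuclease, to 0.31 for Rpa2, a subunit of the protein that coats single strands. Lig1, the ligase that joins Okazaki fragments, lay just outside the threshold at 0.27 (adjusted p = 0.0535). Tyms, thymidylate synthase, was the 1 gene with a negative difference, of -0.012, on a probe set above the filter on 12 of 16 arrays. E2f1, a transcription factor of the E2F family, had a difference of 0.14 (SE 0.190, adjusted p = 0.729), with signals of 7.57, 7.81, 7.52 and 7.10 in controls and 7.87, 7.89, 7.34 and 7.46 in knockouts.

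Leaving out control E16.5 replicate 2 kept 7 of the 8 calls, lost 1 and gained 1. There were again 8 called and all were higher, with 12.5% of all genes called and 8.6% called higher. Mcm2 no longer passed (0.34, adjusted p = 0.0951), while Pold1, the catalytic subunit of polymerase delta, did (0.46, SE 0.135, adjusted p = 0.0371). Pold1 signals were 9.14, 9.81, 9.38 and 9.34 in controls and 9.89, 9.89, 9.58 and 9.63 in knockouts, so the groups overlapped through the left-out pool. Ccne1 moved to 0.73 (SE 0.116, adjusted p = 0.00075), or 1.66-fold, and its groups no longer overlapped. Pcna moved the other way, from 0.32 to -0.082 (adjusted p = 0.810). The median over the 40 genes was 0.21 against 0.066 over all genes, 36 of 40 differences were positive against 61.1%, and 15 had an unadjusted p under 0.05 on the higher side against 18.5%. Knockout and control values did not overlap for 16 genes, or 40%, against 17.5% of all genes. Further probe sets of the called genes that lay above the filter all differed less in that fit than the probe set kept. For Rrm2 they read 0.066 and -0.31 against 0.47, for Cdt1 0.14 against 0.48, and for Prim2 0.078 and 0.24 against 0.48. Those of Mcm5 read 0.44 and -0.076 against 0.56, that of Ccne1 0.31 against 0.73, and that of Pold1 0.22 against 0.46.

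**Figure D3:**
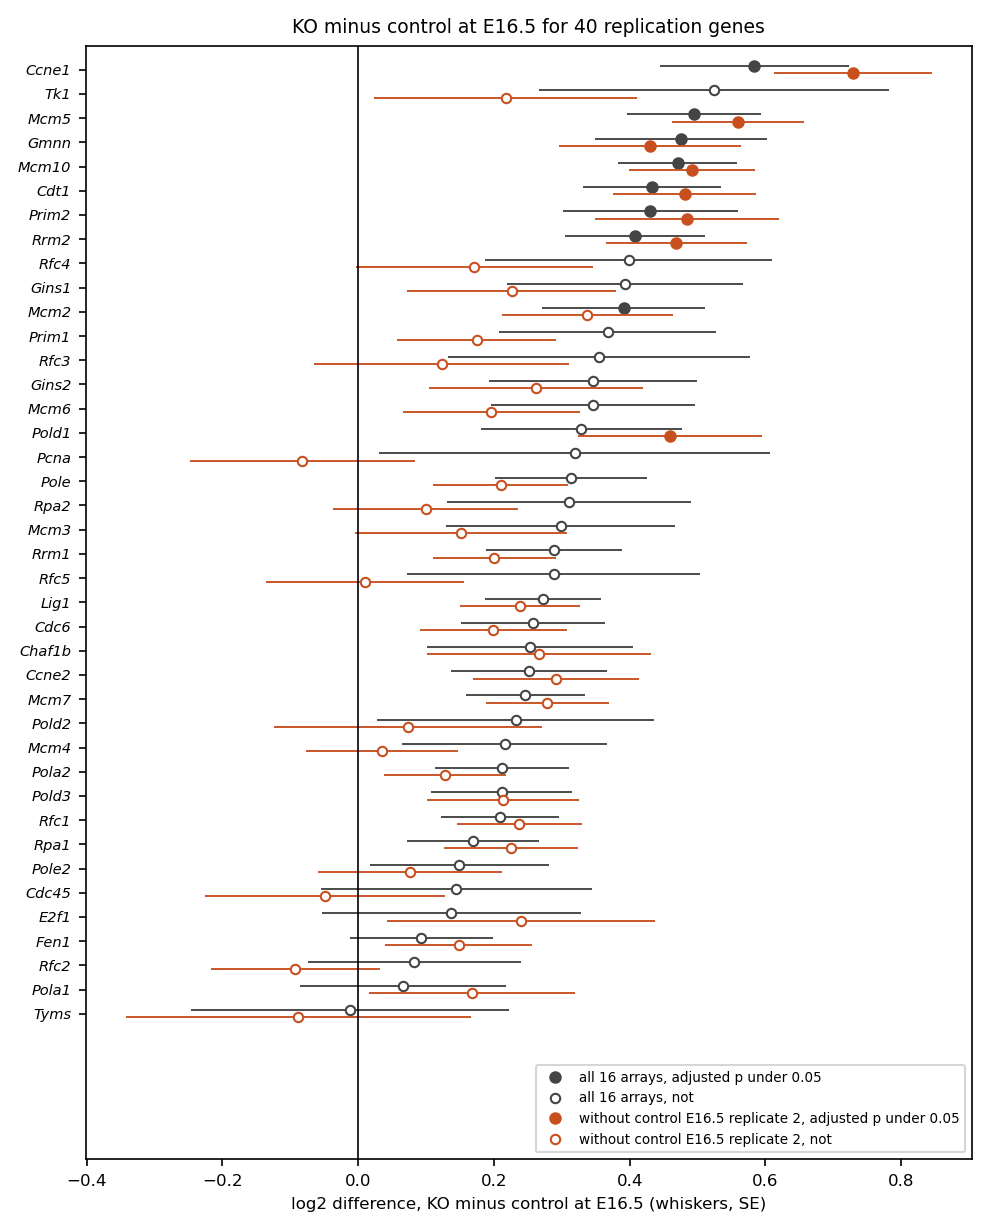
Knockout minus control at E16.5 (log2 signal, points, with whiskers of 1 SE) for the 40 genes, from all 16 arrays and from 15 arrays without control E16.5 replicate 2. Pcna and the clamp loader genes Rfc2, Rfc3, Rfc4 and Rfc5 move to the left when that array is left out, with Pcna from 0.32 to -0.082, and Ccne1, Pold1 and Mcm5 move to the right, with Ccne1 from 0.58 to 0.73.

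The calls differed in how far they leaned on single pools. Mcm10, Mcm5, Cdt1 and Ccne1 were called in all 8 fits that left out 1 pool of the comparison. Rrm2 was lost without knockout replicate 1 or control replicate 1 (adjusted p up to 0.0562), and Gmnn without knockout replicate 2 or control replicate 4 (up to 0.0760). Prim2 was kept only without control replicate 2, and Mcm2 only without control replicate 3. A fit with the replicate number as a block called 6 of the 8 and lost Mcm2 and Gmnn. Scaling mattered as well: with quantile normalization 4 genes were called, with arrays centred on their 75th percentile 2, and with arrays centred on dim probe sets 5. Among all genes called, the higher ones were then 606 of 1176, 447 of 1056 and 595 of 1238, against 954 of 1439 with the deposited values. Mcm10 and Mcm5 were called under each of these scalings, but not when the probe sets of a gene were averaged. With both arrays above 1.5 in 3′ minus 5′ signal left out, an alternative chosen after seeing the data, 5 genes were called: Mcm10, Mcm5, Cdt1, Ccne1 and Rrm2. Of all genes, 1263 were called in that fit. With the 3′ minus 5′ signal of each array as a covariate, also chosen after seeing the data, 12 were called: the 8 and Mcm7, Lig1, Prim1 and Pold1. Calls over all genes rose as well, to 1949 against 1439.

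The left-out array was not evenly low across the replication genes. In control E16.5 replicate 2, 24 of the 40 genes lay below all other controls of that stage, 60% against 33.7% of all genes, and 13 lay above them, 32.5% against 34.6%. The median departure from the mean of the other 3 controls was -0.26 against 0.0089 over all genes. The lowest were Pcna at -1.60, Tk1 (thymidine kinase) at -1.23, and the clamp loader genes Rfc5, Rfc3 and Rfc4 at -1.11, -0.93 and -0.91. The highest were Ccne1 at 0.58, Pold1 at 0.52, and E2f1 and Pola1, both at 0.41.

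Different probe sets of the same gene departed by different amounts on that array. For Rrm2, the probe set kept stood 0.24 above the other controls while the other probe sets of the gene read -1.56 and -2.18 against them on the log2 scale. For Rpa2, the departures were -0.85 and -3.13, and for Prim1 -0.77 and 0.45. Rfc4 read -0.91 and 0.37. The part of RNA quality in these departures was not tested, and the 3′ minus 5′ signal of that array, 3.15, stands beside them. Of 35 further probe sets above the filter for 24 of the genes, 33 were higher in knockouts at E16.5. Of the 2 that were lower, 1 had an unadjusted p under 0.05: the dimmer probe set of Cdc45, at -0.38 in limma's fit over all probe sets, against 0.14 for the brighter one. Without control E16.5 replicate 2, a further probe set of each of Cdc45, Fen1, Mcm5, Rfc3, Rpa2, Rrm1 and Rrm2 was lower. These ran from -0.62 for Rpa2 to -0.076 for Mcm5, and the rest of the 35 were higher.

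**Figure D4:**
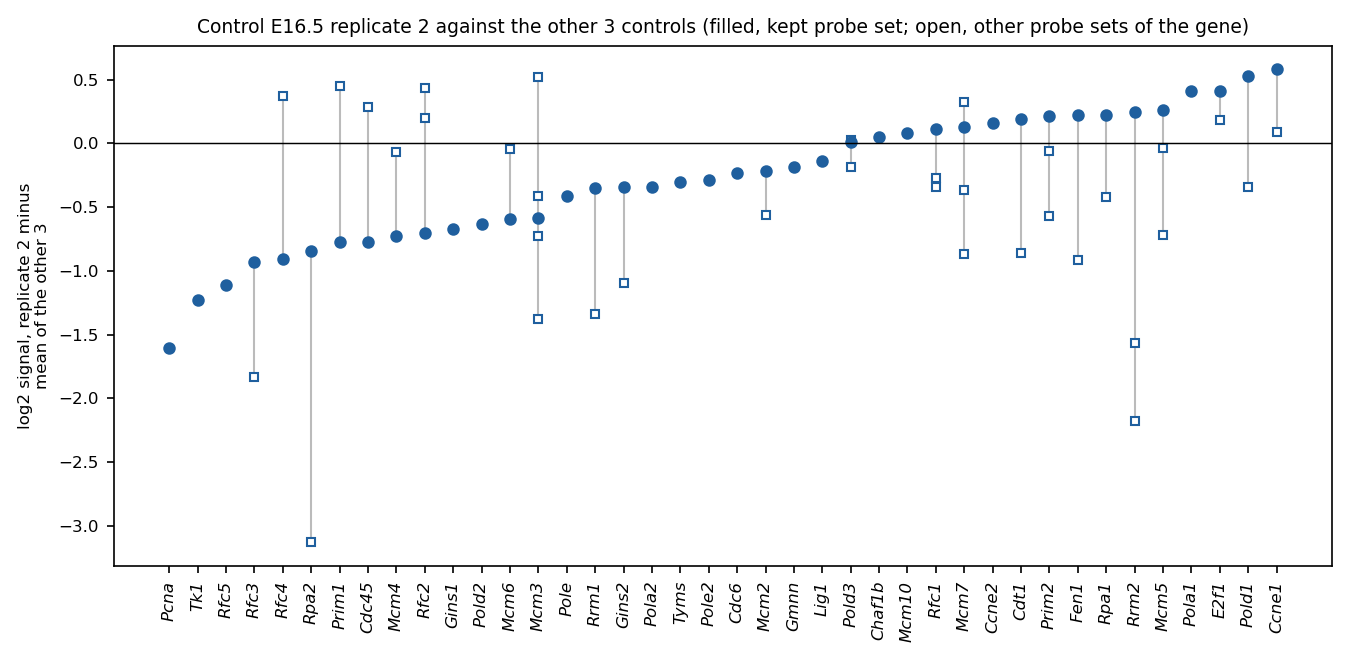
Signal of control E16.5 replicate 2 minus the mean of the other 3 control E16.5 arrays (log2) for each probe set of the replication genes that lay above the filter, with the probe set kept for each gene marked. Probe sets of 1 gene can lie far apart, as for Rpa2 at -0.85 and -3.13.

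At E15.5 the same comparison gave 1 call among the 40 genes, Mcm10, where 5.86% of all genes were called and 3.69% were called higher. Mcm10 read 7.95, 7.78, 7.78 and 7.68 in controls and 8.18, 8.05, 8.21 and 8.02 in knockouts. The groups did not overlap, and the difference was 0.32 (SE 0.0877, adjusted p = 0.0405), or 1.25-fold. With single pools of the comparison left out in turn, 7 of 8 fits lost this call, and the fit without control E15.5 replicate 1 kept it. It was also lost under each of the 3 other scalings. Differences were positive for 35 of the 40 genes against 64.2% of all genes, with a median of 0.11 against 0.069. The groups did not overlap for 5 genes, or 12.5%, against 9.8%. An unadjusted p under 0.05 was reached by 4 genes, which is 10% against 19% of all genes in both directions.

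Prim2 read 8.82, 8.63, 8.69 and 8.34 in E15.5 controls and 9.31, 8.75, 8.88 and 9.01 in knockouts, and its difference of 0.37 did not pass (adjusted p = 0.116). Ccne1 read 9.03, 8.68, 8.91 and 8.65 in controls and 9.23, 9.17, 9.21 and 9.05 in knockouts, without overlap, and its difference of 0.35 did not pass (adjusted p = 0.172). Mcm5 did not overlap either, with 11.11, 11.09, 11.03 and 11.00 against 11.44, 11.24, 11.28 and 11.22 and a difference of 0.24 (adjusted p = 0.197). The groups overlapped for the genes that follow. Cdt1 read 11.30, 11.23, 11.08 and 10.89 in E15.5 controls and 11.47, 11.24, 11.26 and 11.28 in knockouts, a difference of 0.19. Gmnn read 10.46, 10.33, 10.61 and 10.05 against 10.61, 10.48, 10.63 and 10.76, a difference of 0.26, and control replicate 4 was the lowest pool. Mcm2 read 10.82, 10.54, 10.67 and 11.05 against 11.03, 10.82, 11.17 and 10.78, a difference of 0.18, with the highest control inside the knockout range. None of these passed.

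Pcna at E15.5 had no pool far below the others, with 12.87, 12.94, 12.65 and 12.78 in controls and 12.85, 12.87, 13.02 and 13.19 in knockouts, and its difference of 0.17 did not pass. E2f1 read 7.63, 7.40, 7.81 and 7.76 in controls and 7.73, 7.73, 8.40 and 7.55 in knockouts, where replicate 3 stood above all other pools, and its difference of 0.21 did not pass. Rrm2 read 11.59, 11.40, 11.38 and 11.38 against 11.74, 11.39, 11.58 and 11.39, so the pools that were separate at E16.5 were mixed at E15.5.

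Whether the knockout effect was larger at E16.5 than at E15.5 was tested as a difference of the 2 effects, and 0 of the 40 genes and 0 of all 13644 genes were called (0%). The difference was positive for 38 of the 40 genes, against 52.2% of all genes, with a median of 0.18 on the log2 scale. An unadjusted p under 0.05 was reached by Rrm2 alone (0.32, SE 0.146) against 1.89% of all genes. Without control E16.5 replicate 2, the difference was positive for 28 of 40, against 50.9%, and 6 genes had an unadjusted p under 0.05 against 4.4% of all genes: Rrm2, Mcm5, Ccne1, Mcm7, Pold1 and Rpa1. A larger effect at E16.5 was therefore not shown for any single replication gene.

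From E15.5 to E16.5, replication genes were lower in control glands. All 40 differences were negative, where 48.4% of all genes were, and the median was -0.33 on the log2 scale against 0.0063 over all genes. Without control E16.5 replicate 2 all 40 were still negative, where 48.1% of all genes were, with a median of -0.27. Few genes of any kind passed the test by day: 1 of the 40 was called, where 0.0953% of all genes were called, and 0 of the 40 without that array, where 0.0147% of all genes were called. An unadjusted p under 0.05 with a lower signal was reached by 24 of the 40, against 3.01% of all genes, and by 16 without that array, against 3%.

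The gene that fell was Cdc6, the origin loading ATPase. Its control signals were 7.86, 7.72, 7.57 and 7.66 at E15.5 and 7.05, 6.92, 7.11 and 7.30 at E16.5. The days did not overlap, and the change was -0.61 (SE 0.106, adjusted p = 0.0344), to 0.65 of the earlier signal. Without control E16.5 replicate 2 it was -0.55 (adjusted p = 0.0894). The call was kept in 1 of 8 fits that left out 1 pool, the fit without control E16.5 replicate 4. Next by p were Lig1 at -0.39 (adjusted p = 0.118) and Pole, the catalytic subunit of polymerase epsilon, at -0.47 (adjusted p = 0.150).

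All 13 licensing and helicase genes were lower with an unadjusted p under 0.05 in the control day comparison, against 3.01% of all genes. Their changes ran from -0.61 for Cdc6 to -0.24 for Mcm10. Without control E16.5 replicate 2 the number was 6 of 13, against 3%. The clamp and clamp loader genes, from -0.56 for Pcna to -0.14 for Rfc1, had a median of -0.41, which moved to -0.16 without that array. Pcna then read -0.15. The nucleotide supply genes had a median of -0.39, and -0.31 without that array, with Tk1 moving from -0.52 to -0.21 and Rrm2 from -0.36 to -0.42. Ccne1 was -0.31 and moved to -0.46, and E2f1 was -0.15 and moved to -0.25. For 10 genes, or 25%, every E16.5 control lay below every E15.5 control, against 1.68% of all genes. Without that array it was 13, against 3.14%.

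In knockout glands, 35 of the 40 genes were lower at E16.5, against 48.3% of all genes, with a median of -0.18. In limma's test 0 of the 40 were called, where 0.901% of all genes were, and 6 had an unadjusted p under 0.05, all lower, against 2.42% of all genes on that side. The days did not overlap for 7 genes, or 17.5%, against 2.24%. Cdc6 had the smallest p, with 7.89, 7.59, 7.87 and 7.66 at E15.5 and 7.26, 7.30, 7.33 and 7.51 at E16.5. The days did not overlap, and the change of -0.40 (SE 0.106) did not pass (adjusted p = 0.108). Rrm1, the large subunit of ribonucleotide reductase, read 10.83, 10.76, 10.76 and 10.66 and then 10.43, 10.43, 10.47 and 10.61, again without overlap, a change of -0.27 (adjusted p = 0.340). Rfc4 read 9.76, 9.63, 10.18 and 10.15 and then 9.17, 9.64, 9.60 and 9.43, with an overlap, a change of -0.47 (adjusted p = 0.484). For genes that were higher in knockouts at E16.5, the day change in knockout glands stood beside a larger one in controls: -0.017 and -0.26 for Cdt1, -0.074 and -0.33 for Mcm5, and -0.081 and -0.31 for Ccne1. Gmnn was at -0.11 in knockouts and -0.33 in controls, and Mcm2 at -0.086 and -0.30. These differences between the genotypes are the ones that did not pass above. The day comparison in controls and the knockout comparison at E16.5 share the control E16.5 pools, so these sets of values are not independent of each other.

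**Figure D5:**
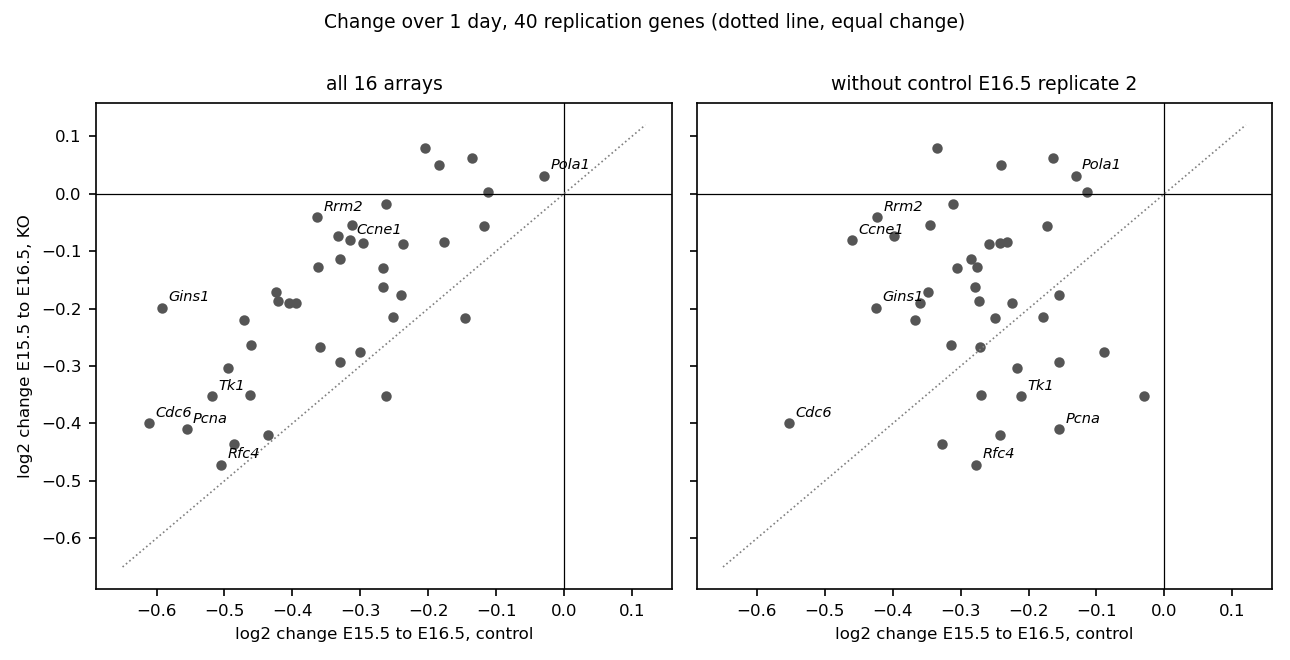
Change from E15.5 to E16.5 (log2 signal) in knockout glands (vertical axis) against the change in control glands (horizontal axis), a point for each of the 40 genes, with all arrays on the left and without control E16.5 replicate 2 on the right; the dotted line marks equal changes. All 40 genes lie left of 0 in both panels and 35 lie below 0 in knockouts, and Cdc6 lies at -0.61 in controls and -0.40 in knockouts with all arrays.

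Other genes of the same process were read from lists fixed by name. Of 43 further replication genes, 4 were called higher in knockouts at E16.5 and none lower. That is close to the 6.99% of all genes called higher. They were Wdhd1, a fork protein that links the helicase to polymerase alpha (0.67, adjusted p = 0.00516), Dna2, a nuclease (0.63, adjusted p = 0.00335), the GINS subunit Gins3 (0.45, adjusted p = 0.0119) and the checkpoint mediator Clspn (0.27, adjusted p = 0.0450). The median of the 43 was 0.21. Without control E16.5 replicate 2, 3 were called higher, against 8.6% of all genes, and 1 lower, Rnaseh2a at -0.63 (adjusted p = 0.0287). Clspn then stood just past the threshold and was not called (0.27). The median was then 0.16. In the control day comparison none of the 43 was called, with or without that array. There 1 difference was positive and the median was -0.28, and without that array 5 were positive and the median was -0.20. At E15.5 none of the 43 was called with all 16 arrays, and Gins3 (0.33) was called higher without that array.

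Of 30 further S-phase entry regulators, 4 were called higher in knockouts at E16.5, against 6.99% of all genes. They were Ccnd3 (0.80), a D cyclin, E2f8 (0.70), a repressive member of the E2F family, Ccna2 (0.47), the cyclin of S and G2 phase, and Cdc25a (0.40), a phosphatase that activates Cdk2. With control E16.5 replicate 2 left out, 5 were called higher, against 8.6% of all genes. Ccnd3 then did not pass (0.66, adjusted p = 0.0913). E2f8, Ccna2 and Cdc25a did, at 0.88, 0.33 and 0.41. Cdkn1a, the p53 target that inhibits cyclin-dependent kinases, moved from 1.00 (adjusted p = 0.0609) to 1.41 (adjusted p = 0.00079), and Fbxw7, which marks cyclin E for breakdown, from 0.33 (adjusted p = 0.0531) to 0.37 (adjusted p = 0.0365). At E15.5, Cdkn1a was higher by 1.53 (adjusted p = 0.00847) and E2f8 by 0.69, while Ccnd2 was at -0.38 (adjusted p = 0.0437). Without control E16.5 replicate 2, E2f5 (0.69) and Cdc25a (0.31) were also called at E15.5.

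Of 24 genes of mitosis, which is the step after replication, 7 were called at E16.5 and all were higher, against 6.99% of all genes. The median was 0.41, and those called included Cenpe (0.69), Aurka (0.61), Ndc80 (0.55) and Top2a (0.42). When control E16.5 replicate 2 was left out, 8 were called, all higher, against 8.6% of all genes, with a median of 0.35. Mki67 then did not pass (from 0.42 to 0.40, adjusted p = 0.0727), Cdc20 (0.35) and Bub1b (0.37) did, and Aurka moved to 0.44. Day medians of the 24 were -0.44 in controls, -0.36 without that array, and -0.28 in knockouts. None of the 24 was called at E15.5 or by day in knockouts with all arrays. Without that array, Aurka was called higher at E15.5 (0.51), and Aurka (-0.50) and Aurkb (-0.36) were called lower by day in knockouts.

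Markers of cell types moved between the groups as well. Of 15 macrophage markers, 8 were called higher in knockouts at E15.5 and 14 at E16.5, against 3.69% and 6.99% of all genes. Median differences were 0.81 and 1.32. Without control E16.5 replicate 2, which enters the E15.5 test through the shared spread, Lyz2, C1qa, C1qc and Cd68 were also called higher at E15.5. The mean log2 signal of the 15 markers per array ran from 7.92 to 8.54 in control and from 9.13 to 9.51 in knockout glands at E16.5. Of 10 cortex markers, 4 were called lower at E15.5 and 6 at E16.5, against 2.18% and 3.55% of all genes. Mc2r was also called lower at E15.5 without that array. The mean signal of the 10 ran from 11.80 to 12.29 in control and 11.05 to 11.51 in knockout glands at E16.5. Of 10 chromaffin and neuroblast markers, 3 were called higher at E16.5, against 6.99%. Leaving that control array out, the E16.5 counts were 14 macrophage markers higher, 7 cortex markers lower and 2 chromaffin and neuroblast markers higher. Of all genes, 8.6% were then called higher and 3.9% lower. The macrophage median was 1.26. Of 7 erythroid markers tested, none was called between genotypes, with a median of 0.57 at E16.5. By day, 2 of them were called lower in each genotype, against 0.0513% of all genes in controls and 0.0293% in knockouts. In controls it was 0 without control E16.5 replicate 2. Of the 15 macrophage markers, 6 were called higher by day in knockouts, against 0.872% of all genes, and none was called in controls. Fcgr3 was also called by day in knockouts without that control array. None of the 10 endothelial, 11 capsule and mesenchyme and 3 kidney markers tested was called at either stage, nor at E16.5 without that array. Of 4 Schwann lineage markers, 1 was higher at E16.5, and 2 without that array. The part of the mix of cells in the differences of the replication genes was not tested.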

How the data were processed

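Whole adrenal glands of 4 groups of 4 pools were profiled on 16 Affymetrix Mouse430_2 arrays. The authors deposited log2 signals for 45101 probe sets. The submitters' processing notes name RMA and limma. Their versions, and whether all arrays were normalized in 1 run, are not given in the sources used here. Mean signal over all probe sets ran from 6.31 to 6.32 on control arrays and from 6.35 to 6.37 on knockout arrays. Dim probe sets had median knockout minus control differences of 0.10 at E15.5 and 0.073 at E16.5. This offset enters each knockout minus control difference and each count of groups without overlap, and its cause was not tested. RMA compresses dim signals, so changes near the floor are understated. The number of arrays limits the precision, and a knockout minus control difference had a median SE of 0.139 (log2).

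Gene names came from the platform annotation: 34945 probe sets had 1 symbol, 932 several and 9160 none, beside 64 control probe sets, and 34741 symbols were looked up through the gene identifier. The brightest probe set by mean over 16 arrays stood for a gene. It was tested when its signal exceeded the array's 40th percentile in at least 4 of them. A mean per group was fitted to all 16 arrays with limma 3.58.1 in R 4.3.3 and moderated with eBayes, with two-sided tests and Benjamini-Hochberg adjustment over the 13644 genes. Tables were read with the R package data.table, version 1.17.8, and figures drawn with matplotlib 3.10.9, pandas 2.3.3 and numpy 2.4.6. The fit was tested on simulated data with independent normal noise of equal quality on all arrays. That simulation held no outlying array and no offset between genotypes, so it does not cover those features of these data. No pair of arrays was identical.

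Groups came from the labels. Values by array are given for up to 8 called genes in each comparison, or the 3 with the smallest p where none is called, and always for Pcna, Mcm2, Cdt1, Gmnn, Ccne1 and E2f1. At most 4 called genes are named from a context list. Genes whose call changed without control E16.5 replicate 2 are named too, a choice made with their values in view. The genes, lists and rules were chosen with earlier results of these data known. Alternatives covered the filter, scaling, array weights, probe sets, samples in the fit, a replicate block, RNA quality and arrays left out. The RNA quality settings were chosen after seeing the data. Promoter windows came from RefSeq (GRCm38.p6) for 33 of the 41 genes, of which the 250 bases before the start site were read.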

Additional observations from a re-analysis of the deposited data

Results flagged for a closer look

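In each of 164 groups of 4 arrays, the gap between the highest or lowest array and its nearest neighbour was set against the range of the group, and 8 groups passed the 95% critical value of Dixon's test. Chance alone passes about 1 in 20 groups, or 5%, and 8 of 164 is close to that share. Both such groups at control E16.5 had replicate 2 apart, the array with a 3′ minus 5′ signal of 3.15. Pcna was at 11.05 there against 12.61 to 12.72 in the other 3 controls, a gap of 0.938 of the range. Rfc5, a clamp loader subunit, was at 8.02 against 9.11 to 9.15, a gap of 0.966.

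At control E15.5, replicate 1 stood above the other 3 for both subunits of ribonucleotide reductase: Rrm1 at 10.68 against 10.51 to 10.52 (gap 0.915) and Rrm2 at 11.59 against 11.38 to 11.40 (gap 0.874). Pole was highest in control E15.5 replicate 4, at 8.31 against 8.19 to 8.2 (gap 0.920). In knockout E15.5 replicate 1, Cdt1 was at 11.47 against 11.24 to 11.28 (gap 0.850). In knockout E16.5, Rfc1 was lowest in replicate 2, at 9.44 against 9.58 to 9.59 (gap 0.950), and Prim1 was lowest in replicate 1, at 9.79 against 10.12 to 10.18 (gap 0.847).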

How the results depend on the processing

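Counts of replication genes called in the knockout comparison at E16.5 moved by more than 1.5 times from 8 under quantile normalization (4), centring on the 75th percentile (2) or on dim probe sets (5), array weights (17), a fit of the compared groups alone (4), leaving out both arrays with a high 3′ minus 5′ signal (5) and leaving out both arrays numbered 2 at E16.5 (5), and they ran from 5 to 8 with 1 pool left out. At E15.5 the count of 1 became 0 under the filter at the 60th percentile, the 3 scalings, array weights, averaged probe sets, the compared groups alone, the replicate block and without both arrays numbered 1, became 2 with the 3′ minus 5′ signal as a covariate, and ran from 0 to 1 with 1 pool left out. In the control day comparison the count of 1 became 15 with array weights and 0 with centring on the 75th percentile, the compared groups alone, both high 3′ minus 5′ arrays left out, or the arrays numbered 1 at E15.5 or 2 at E16.5 left out, and ran from 0 to 1 with 1 pool left out. The counts of 0 for the knockout day comparison and for the difference of effects stayed at 0 in every setting run. With the replicate number as a block, 6 genes were called at E16.5, without Mcm2 and Gmnn. Each litter gave a control and a knockout pool, but no label ties the numbers to litters. Of 8 same-numbered pairs, 5 had correlated deviations over 0.1 and 3 matched their own number best (range -0.39 to 0.45). This check cannot settle whether the numbers pair the pools, since a single deviating pool can break a pair. The main fit leaves the pairing of litters out. The 3′ minus 5′ covariate gave 12 at E16.5, with 1949 of all genes called. At E15.5 it called 1150 of all genes, against 800. Array weights called 4938 of all genes at E16.5, against 1439, and 1103 of all genes in the control day comparison, against 13.

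Over 2147 alternative values of named genes, 2002 kept direction and side of the threshold, 78 lost the call, 37 gained it and 30 changed sign; the cause was not tested. At E16.5, Pola1 turned to -0.021 with quantile normalization, -0.023 with the 75th percentile and -0.035 with averaged probe sets, and Rfc2 to -0.0059 with the 75th percentile, -0.069 with array weights, -0.0029 with the high 3′ minus 5′ arrays out and -0.064 without the arrays numbered 2. Pold2 and E2f1 turned to -0.034 and -0.024 with array weights, Cdc45 to -0.12 with averaged probe sets and -0.0056 without the arrays numbered 2, Pcna to -0.051 without them, and Tyms to 0.18 with array weights and 0.096 with averaged probe sets. The knockout day change of Cdt1 turned to 0.020 with quantile normalization and 0.035 without the arrays numbered 1. The difference of effects of Pcna turned to -0.043 with array weights, -0.082 without the high 3′ minus 5′ arrays and -0.22 without the arrays numbered 2. With 1 pool left out, E16.5 differences ran from -0.049 to 0.28 for Cdc45, -0.082 to 0.49 for Pcna, -0.092 to 0.19 for Rfc2, -0.074 to 0.20 for Pola1 and -0.088 to 0.14 for Tyms. The control day change of Pola1 ran from -0.13 to 0.11, the knockout day change of Cdt1 from -0.039 to 0.035, and the difference of effects of Pcna from -0.25 to 0.32.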
